A study of Mus musculus and synthetic construct with 32 samples.

Results

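The 2304 RNA words described here are the 9-letter sequences of an RNA Bind-N-Seq experiment that carry the m6A consensus with A directly before the central A. They were picked by a rule that uses only their letters, set with earlier results of these data known. They come from a table of 65536 9-mers, every one of which has A at position 5. Positions are counted from 1 at the 5′ end. The rule fixes A, G or T at position 3, A at positions 4 and 5, C at position 6 and A, C or T at position 7. Positions 1, 2, 8 and 9 may hold any letter, so each combination of permitted letters occurs once. The files write T where the RNA has U.

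In the assay, a pool of synthetic single-stranded RNAs, each 21 nt long with 10 random letters on either side of 1 central N6-methyladenosine (m6A), was mixed with Ni-NTA agarose beads. In 4 libraries the beads carried 6xHis-SUMO-YTH, the tagged YTH domain of human YTHDC2, and in 4 control libraries they were bare. Every RNA of the pool was made with the modified base, and no library of a pool without it was used here. The central A of a 9-mer is the modified base only where the word was read from the middle of the RNA, and the sources used here do not state where the words were read. The other 24 of the 32 libraries of the series are mouse gonad RNA and hold no 9-mers. The isolated domain was tested without the helicase part of the protein, and no cellular RNA was present.

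Cells place m6A mainly within the consensus called DRACH, in which D is A, G or T, R is A or G, and H is A, C or T. A methyltransferase complex built on METTL3 and METTL14 writes it. YTH domains hold the methyl group in a cage of aromatic side chains, and proteins that carry them are called m6A readers. YTHDC2 combines such a domain with an RNA helicase and is needed in the germline for meiosis. Among related readers, the domain of YTHDC1 is known to favour G directly before m6A. Words with A there, as in this set, are the other permitted form of the consensus.

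The sequences that span the range of the set are shown first. The highest and the lowest word differ only at positions 3, 7 and 9. Each is written 5′ to 3′ with positions 3 to 7, the consensus part, in capitals.
Highest, rank 1: gtAAACAca
Highest, rank 2: gtAAACAaa
Highest, rank 3: cgTAACAca
Highest, rank 4: cgTAACAaa
Highest, rank 5: cgAAACAaa
Lowest, rank 1: gtGAACTcc
Lowest, rank 2: ccGAACTac
Lowest, rank 3: gtGAACTct
Lowest, rank 4: ttGAACTct
Lowest, rank 5: gtGAACTcg

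All of the 5 highest end in ACA or AAA at positions 7 to 9, and all of the 5 lowest hold GAACT at positions 3 to 7. In the authors' deposited table, gtAAACAca had a fold of 60.8, the YTH domain libraries over the bead libraries. The next value in the authors' deposited table was 24.5 for gtAAACAaa, which differs from it only at position 8. Folds in the authors' deposited table were 23.3 for cgTAACAca, 17.4 for cgTAACAaa and 14.9 for cgAAACAaa. At the other end, the authors' deposited table gave gtGAACTcc a fold of 0.471, followed by ccGAACTac at 0.517 and gtGAACTct at 0.521. The remaining pair of low words was ttGAACTct at 0.526 and gtGAACTcg at 0.531 in the authors' deposited table. By the rule for calls given below, gtGAACTct and gtGAACTcg were not called, and the other 3 were called lower.

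Most consensus 9-mers with A before were more frequent with the YTH domain than with beads. The median fold of the 2304 members was 1.34, with 25% of them below 0.993 and 25% above 1.83. By comparison the median over all 65536 9-mers was 0.774, so a fold of 1 is not the middle of the table, and 2084 members (90.5%) lay above that median. Of the members 1717 were above 1, and 442 (19.2%) had a fold of at least 2, against 6.06% of all 9-mers. There were 72 members with a fold of at least 5 and 19 with a fold of at least 10, out of 574 and 162 such words among all 65536.

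Replicate libraries could be compared only through the authors' p-value for each word, which gives no size of the spread between libraries. It takes 9 distinct values in the authors' deposited table, the smallest being 0.0286, which is also the smallest that an exact two-sided test of 4 libraries against 4 allows, with 70 possible groupings. After Benjamini-Hochberg adjustment over all 65536 words this smallest p became an adjusted p of 0.0443, and the next step 0.0791. A word is called higher or lower here when its adjusted p is below 0.05, so every call carries the same p and the calls cannot rank words. With that rule 1187 members were called higher, 237 lower, and 880 were not called. The share called higher was 51.5% of the members, beside 17.3% of all 9-mers. Called lower were 10.3% of the members, beside 47.2% of all 9-mers. In either direction 61.8% of the members and 64.5% of all 9-mers were called. With a fold of at least 1.2 also required, 50.1% of the members and 16.7% of all 9-mers were called higher. Under that requirement 9.51% of the members and 46.4% of all 9-mers were called lower. Read against the median fold of the table in place of 1, 54.1% of the members and 20.6% of all 9-mers were called and above it, and 7.73% and 43.9% were called and below it.

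The letter directly after the consensus C, at position 7, separated the members most. Members with A there had a median fold of 1.69, members with C 1.44 and members with T 0.950. Of the 768 words with each letter, 550 were called higher with A, 465 with C and 172 with T, and called lower were 10, 9 and 218. With T this was 22.4% called higher and 28.4% lower, beside 17.3% and 47.2% of all 9-mers. The median with T was also above the 0.774 of the whole table. In 768 matched pairs equal at every other position, the word with A was higher than the word with T in 680, with a median ratio of 1.85. C exceeded T in 670 pairs, with a median ratio of 1.49. A and C were closer, with a median ratio of 1.198 and A higher in 504 pairs. These ratios are descriptions across words, which share libraries and are not replicates, and the same holds for the counts of pairs below.

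At position 3, the first letter of the consensus, A went with the higher folds. Medians were 1.59 with A, 1.29 with T and 1.19 with G, and the words called higher numbered 497, 352 and 338. G at this position also had the largest number called lower, 141, against 63 with T and 33 with A. Even with G, 44.0% were called higher and 18.4% lower, beside 17.3% and 47.2% of all 9-mers. Matched pairs gave A over G a median ratio of 1.36, with A higher in 680 of 768, and A over T a ratio of 1.23, with A higher in 581.

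Together positions 3 and 7 define 9 cores, each with 256 members. The core AAACA had the highest median fold, 2.01, with 216 words called higher and 0 lower. Below it stood AAACC at 1.73, then TAACA at 1.56 and GAACA at 1.46. TAACC at 1.369 and GAACC at 1.363 had medians that differed little beside quartiles of 1.11 to 1.62 and 1.12 to 1.65. The 3 cores that end in T came last, with AAACT at 1.15, TAACT at 1.00 and GAACT at 0.768. For GAACT 131 of 256 words (51.2%) were called lower, beside 47.2% of all 9-mers, and 24 (9.38%) higher, beside 17.3%. The median of GAACT was close to that of the whole table. Within each letter at position 3 the order of position 7 was A, then C, then T, and within each letter at position 7 A at position 3 had the highest median.

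The highest word of each core shows how far the fold reached with favourable flanks. In the authors' deposited table the AAACA and TAACA cores reached 60.8 and 23.3 in gtAAACAca and cgTAACAca. The GAACA core reached 8.52 in cgGAACAaa, which has the AAA ending, in the authors' deposited table. Cores with C at position 7 topped out lower in the authors' deposited table, with cgAAACCtc at 6.38, acGAACCaa at 4.27 and tcTAACCcc at 4.04. For the cores with T the authors' deposited table had caGAACTtg at 6.90, ggAAACTtc at 4.66 and ctTAACTtc at 4.06. The core with the lowest median therefore held the highest word among the cores without A at position 7.

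Downstream of the consensus, A was the highest letter at both positions, and most of the large folds lay in a pair of endings. At position 8 the medians were 1.61 with A, 1.40 with T, 1.26 with G and 1.15 with C. At position 9 they were 1.65 with A, 1.31 with C, 1.30 with G and 1.21 with T. Matched ratios of A over the other letters ran from 1.25 to 1.40 at position 8 and from 1.23 to 1.27 at position 9. Between the other letters at position 9 the matched ratios were small, at 0.941 for C over G, 1.00 for C over T and 1.03 for G over T.

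Read as trinucleotides over positions 7 to 9, 48 endings each held 48 members. The ending ACA had a median fold of 6.66 and AAA a median of 6.20, while the third, AAG, was at 2.48. ATA followed at 2.27, AAT at 2.24 and AGA at 2.00. These 96 words with ACA or AAA, a grouping made after the folds were seen, ran from 1.40 to 60.8 and include all 19 members with a fold of at least 10 and 67 of the 72 with a fold of at least 5. Their lowest words in the authors' deposited table were ccGAACAca at 1.40 and ccGAACAaa at 2.12, both with GAACA as core. The other 2208 members had a median of 1.31 and a highest fold of 6.90.

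Endings 1 letter away from this pair did not share their medians. ACT, which shares its first letters with ACA, had a median fold of 0.995, ACG 1.199 and ACC 1.47. Changing the first letter of ACA gave CCA at 1.54 and TCA at 0.975, and changing that of AAA gave CAA at 1.91 and TAA at 1.25. Across the members, letters at the 6 free positions added together accounted for 48.9% of the variance of log2 fold, with 24.2% for position 7 alone, 9.002% for position 9 and 6.76% for position 3. The trinucleotide at positions 7 to 9 by itself accounted for 66.0%, and with the one at positions 1 to 3 added for 80.4%. These shares describe the 2304 words and carry no test.

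At the low end, the 4 endings that begin with TG had the lowest medians. They were 0.684 for TGC, 0.786 for TGA, 0.794 for TGG and 0.799 for TGT. Of these medians that of TGC alone lay below the 0.774 of the whole table. Of the 48 members ending in TGC, 38 (79.2%) were called lower, beside 47.2% of the whole table, and 3 higher. The 4 endings that begin with TC came next, between 0.857 and 0.975, apart from TAC at 0.902. The TGC ending was also low in matched words outside the set. Its median was 0.608 with G before the central A, 0.715 with C and 0.838 with T. With A, G or T at position 6 in place of C it was 0.578, 0.587 or 0.613. The 0.684 of the members lay below the medians with C and T before and above the other medians given here.

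Of the 5 highest words without ACA or AAA at the end, 3 had GAACT, the core with the lowest median. Words with GAACT as core and TTG at positions 7 to 9, whose T is shared by both, had folds from 0.942 to 6.90, while the 240 GAACT words with other endings ran from 0.471 to 1.48 with a median of 0.755. Position 2 divided these 16 words, which were singled out after their values were seen. With A at position 2 the folds in the authors' deposited table were 6.90 for caGAACTtg, 6.48 for taGAACTtg, 5.55 for gaGAACTtg and 4.73 for aaGAACTtg. With G at position 2 they were 4.56 for agGAACTtg, 4.30 for ggGAACTtg, 3.99 for cgGAACTtg and 3.20 for tgGAACTtg in the authors' deposited table. With C or T at position 2 the 8 words lay between 0.942 and 1.65, with no overlap with the first 8. The ending TTG did not stand out with another letter at position 3, with medians of 1.17 for A and 1.15 for T over 16 words each. With G in place of A before the central A, the 16 matching words had a median of 0.637.

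Upstream of the consensus the letters moved the fold less. At position 1 medians were 1.43 with A, 1.36 with G, 1.35 with C and 1.198 with T. In matched pairs the median ratio was 1.17 for A over T, 1.150 for C over T and 1.145 for G over T. At position 2 they were 1.43 with G, 1.39 with A, 1.29 with C and 1.25 with T. Position 1 alone accounted for 1.45% of the variance of log2 fold and position 2 for 1.23%. Combinations with position 3 spread further, since G before A gave a median of 1.85 at positions 2 and 3 and C before A 1.66, while T before G gave 1.02. Over positions 1 to 3 the highest medians belonged to CGA at 2.23, ACA at 2.13 and GGA at 1.96, and the lowest to CCG at 0.918, TCT at 0.962 and TGT at 0.971. CGA had 43 of its 48 words called higher and 0 lower. The first 5 trinucleotides kept their ranks when the words ending in ACA or AAA were left out, at 2.21 for CGA, 2.01 for ACA and 1.93 for GGA, then AGA and CAA.

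One-letter changes to the highest word give the order of letters in a single context. At positions 3, 7 and 9 the permitted letters kept the order of the medians over all members, and at positions 1, 2 and 8 they did not. At position 9 the medians over all members with C and G, 1.31 and 1.30, hardly differed. The matched ratio of C over G there was 0.941, the other way round. Counterparts of the highest word with another letter at position 1 were at 10.5 for atAAACAca, 10.2 for ttAAACAca and 9.77 for ctAAACAca in the authors' deposited table. Those changed at position 2 were at 14.4 for gcAAACAca, 12.4 for ggAAACAca and 11.7 for gaAAACAca in the authors' deposited table. All 6 changes at positions 1 and 2 left a fold above 9, and the 60.8 of gtAAACAca itself stood well above them. At position 3, gtTAACAca had 6.72 and gtGAACAca 2.34 in the authors' deposited table, and gtCAACAca, which lies outside the consensus, had 8.56. At position 7 the authors' deposited table had gtAAACCca at 2.47, gtAAACGca, also outside the consensus, at 1.38, and gtAAACTca at 0.960, which was not called. Position 8 gave 24.5 for gtAAACAaa, 3.10 for gtAAACAta and 2.47 for gtAAACAga in the authors' deposited table. Position 9 gave 6.35 for gtAAACAcc and 1.54 for gtAAACAcg in the authors' deposited table, and 1.11 for gtAAACAct, which was not called (adjusted p = 0.0791, from the authors' p, whose steps are those of an exact test).

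The C after the central A was fixed by the rule, and most matched words without it were lower. In the authors' deposited table the highest word had counterparts at 1.52 with T at position 6 (gtAAATAca), 1.11 with G (gtAAAGAca) and 0.941 with A (gtAAAAAca), and the last pair of words was not called. Over all 2304 members, matched words with A in place of C had a median fold of 0.714 and were lower in 2067 pairs, and words with G had a median of 0.717 and were lower in 2134. Words with T there were nearer, with a median of 1.07, and the member was higher in 1731 pairs with a median ratio of 1.201. The ACA and AAA endings had medians of 0.959 and 0.832 with A in place of the C and 1.00 and 0.797 with G. With T they were at 1.45 and 2.52, below the 6.66 and 6.20 of the members.

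Against the other form of the consensus, with G directly before the central A, the members were higher in 2082 of 2304 matched pairs. The median ratio was 1.53, and 5% of pairs were below 0.892 and 5% above 2.73. The G-before words had a median fold of 0.858, above the 0.774 of the whole table. Of these words 373 (16.2%) were called higher, beside 17.3% of all 9-mers. Called lower were 891 (38.7%), beside 47.2% of all 9-mers. Among the members called higher, 330 had a G-before counterpart that was also called higher, 209 one that was called lower and 648 one that was not called. In the reverse direction, 5 members called lower had a counterpart called higher. The difference between the forms was not tested, because the columns of values per library could not be matched to the groups.

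The excess of A over G before the central A was seen in every subset by position 3 or 7, in unequal size. By position 3 the median ratio was 1.68 with T, 1.63 with A and 1.27 with G. By position 7 it was 1.74 with A, 1.49 with C and 1.35 with T. For the 96 words ending in ACA or AAA it was 3.04, and the member was the higher word in 95 pairs. In the authors' deposited table the G-before counterparts of the 5 highest members were at 4.69 for gtAGACAca, 4.45 for gtAGACAaa, 1.90 for cgTGACAaa and 4.07 for cgAGACAaa. The remaining one, cgTGACAca, was at 1.05 and not called, against 23.3 with A before, in the authors' deposited table.

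A before the central A was not the highest letter there. Words with T at position 4, which do not belong to the consensus, had a median fold of 1.42 with 1343 called higher, above the 1.34 and 1187 of the members, and were the higher word of the pair in all but 889 of 2304 pairs. The median ratio of member to T-before word was 0.927. With G at position 3 this ratio was 1.03, and with A or T at position 3 it was 0.886 or 0.892. C-before words had a median of 1.13, and the members were higher in 1536 pairs. With A at position 3 the member was higher in 398 of 768 pairs, with a median ratio of 1.02. With G or T at position 3 it was higher in 570 or 568 of 768. Folds of at least 5 were more numerous among C-before words, with 95, against 72 among the members. At a fold of at least 2 the order was reversed, with 394 C-before words against 442 members. T-before words had 131 folds of at least 5 and reached 124, above the 60.8 of the members. Among the 16 combinations of letters at positions 4 and 6, with positions 3 and 7 as in the consensus, the members ranked at 2, after T before and C after. The endings ACA and AAA had high medians after T before as well (6.32 and 7.05), lower ones after C before (3.89 and 4.44) and the lowest after G before (1.55 and 2.51).

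Words just outside the rule at position 3 or 7 had lower medians than the members as a whole. With C at position 3, 768 words had a median fold of 1.18, beside 1.19 for members with G there. With G at position 7, 768 words had a median of 1.03, between the members with C (1.44) and with T (0.950) at that position.

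Base composition moved with these folds. Members with more A at the 6 free positions had higher medians, from 0.971 for 324 words with no A to 1.17 with 1, 1.42 with 2, 1.87 with 3 and 2.56 with 4. Without the words ending in ACA or AAA the last of these values was 2.13. G and C content made less difference, with medians between 1.28 and 1.51 over 0 to 6 such letters at the free positions.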

How the data were processed

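RNA Bind-N-Seq libraries came from 4 YTH domain purifications and 4 bead controls. For every 9-mer the authors deposited a fold ratio, per the file headers, and a p-value without adjustment. The header does not state the scale of the fold, which was read as linear because its lowest value was 0.342. The submitters' processing notes name cutadapt. How 9-mers were counted and scaled, where in the RNA they were read and which test gave the p is not given in the sources used here. The 8 columns of values per library carry names that match no label and were not used, so depth per library is unknown and no SD or test over libraries was computed. The planned count model and permutation tests were replaced by the authors' p-values, adjusted by Benjamini-Hochberg over all 65536 9-mers with SciPy 1.17.1 at a threshold of 0.05. Whether the purifications were separate experiments is not stated in the labels, so the p may rest on technical repeats only.

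Medians, matched pairs (words equal but for 1 letter) and shares of variance of log2 fold were computed with Python 3.11.15, pandas 2.3.3 and numpy 2.4.6. The matched ratios were tested on simulated data with known letter effects, and the Benjamini-Hochberg adjustment on simulated p-values. The other medians and the shares of variance were not tested in this way. No pseudocount or filter was applied, and all 2304 members are included. The words named are the 5 highest and 5 lowest by fold, the highest of each core, the highest member with 1 letter changed, and the G-before counterparts of the 5 highest. The members and lists were chosen with earlier results of these data known. Words named for the ACA, AAA and TTG endings were chosen after their values were seen.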

Additional observations from a re-analysis of the deposited data

How the results depend on the processing

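At an adjusted p under 0.01, 0 members were called higher and 0 lower, because the smallest adjusted p in the table is 0.0443. A fold of at least 1.2, an adjusted p under 0.1 or a direction read against the table's median each kept both counts within 1.5 times, at 1155, 1324 and 1246 called higher and 219, 298 and 178 lower. With the mean of log2 folds in place of the median, 30 of 32 values stayed on their side of 1. T at position 7 moved to 1.01 and the core TAACT to 1.04, both near 1 before. With the mean of log2 ratios 28 of 31 matched ratios stayed, and C over G at position 1 moved to 1.00, A over G at position 2 to 0.982 and C over G at position 8 to 1.07, so no order of these letters is read. Leaving out the words ending in ACA or AAA, an alternative chosen after seeing the data, moved none of 63 values across 1 or by more than 1.5 times. The ratio of the medians with A and G before was 1.56, against 1.53 over pairs. No paired analysis was possible because the columns of values per library match no label. For the same reason leaving out a library, other normalizations and filters on low bead values were not run, and the depth behind each fold is unknown.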

Other observations

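The words ending in ACA or AAA were compared with windows moved along the same sequence, with the centre on the A at position 4 or at position 7; other centres were not examined. When the 9-letter window was moved 1 letter upstream, so that the A at position 4 became the centre, the 96 words had a median fold of 0.716 (the median over the 4 possible added letters, from 0.548 to 1.72), against 6.33 for the words themselves. When it was moved 2 letters downstream, so that the A at position 7 became the centre, the median over 16 possible additions was 1.92 for words ending in ACA, above the 0.774 of the whole table, and 0.747 for words ending in AAA. For gtAAACAca the windows moved upstream ran from 0.604 to 0.756 and those moved downstream from 1.27 to 9.37, all below its own 60.8 in the authors' deposited table.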
